A study of Mus musculus with 12 samples.

Results

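Sox9, Sox5 and Sox6, the transcription factors that drive cartilage formation, the tendon factor Scx, and the cartilage matrix genes Acan, Col2a1, Col10a1, Comp, Matn1 and Hapln1 were examined for 2 histone marks in mesenchymal stem cells (MSCs) of young and old mice. The regions of each gene were all those of a mark that overlapped its annotated gene body (GENCODE vM21) or the 50 kb on either side. This gave 64 of 31617 H3K27ac regions and 43 of 28047 H3K27me3 regions. H3K27ac is acetylation of lysine 27 of histone H3, and H3K27me3 is trimethylation of the same residue. Both were mapped by CUT&RUN, in which an antibody tethers a nuclease to the mark and the released DNA is sequenced. Young MSCs came from mice of 3 to 5 months and old MSCs from mice of 18 to 22 months. All cells were cultured at 2% oxygen, and the labels name no genotype, strain or sex. Each age had 3 libraries per mark, 12 libraries in all. The labels do not say whether the libraries of a group came from separate mice, so the p-values measure the spread between these libraries, which may be technical.

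Sox9 is required for cells to become chondrocytes, and Sox5 and Sox6, which lack an activation domain of their own, act beside it on enhancers of cartilage matrix genes. H3K27ac lies on active promoters and enhancers. H3K27me3 is laid down by Polycomb repressive complex 2, often in broad domains over developmental regulators that a cell does not use, and a single residue cannot carry both marks at once.

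The MSC label was compared with marker genes. Of 12 mesenchymal stromal markers, 12 had an H3K27ac region over the transcription start site (TSS), and Nt5e and Lepr also had an H3K27me3 region there. Of 6 blood markers and 4 endothelial markers, 0 had H3K27ac at the TSS, whereas 3 of each had H3K27me3. Of 4 osteoblast markers, Runx2 and Sp7 had H3K27ac at the TSS, and Ibsp had H3K27me3. Total reads per library were 2750953 to 5541429 for H3K27ac and 3622108 to 9947515 for H3K27me3, and old replicate 2 was the shallowest library of both marks. The cartilage gene regions held a median of 26 H3K27ac reads and 56.0 H3K27me3 reads per library.

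Marks at the start sites divided the genes into several kinds. H3K27ac alone covered the TSS of Sox9, Scx, Col2a1, Col10a1, Comp and Hapln1. H3K27me3 alone covered the TSS of Sox5 and Matn1, and both marks lay over the TSS of Sox6 and Acan. The TSS here is the outermost annotated start of a gene. Of 5 protein-coding starts of Sox5, 4 lay under H3K27ac and 4 under H3K27me3. Of 6 such starts of Sox6, 5 lay under H3K27ac and 1 under H3K27me3. To show the DNA under these combinations, promoters from RefSeq (GRCm38.p6, 250 bases before to 50 after the start, 5′ to 3′ on the strand of the gene) are printed here, with CpG dinucleotides in capitals. RefSeq entries were matched for 6 of the 10 genes, and Sox9, Col2a1, Comp and Scx were not matched. The Sox6 start at chr7:116038695-116038994 (minus strand) and the Acan start at chr7:79052976-79053275 (plus strand) carried both marks. The Matn1 start at chr4:130944135-130944434 (plus strand) carried H3K27me3, and the Col10a1 start at chr10:34389731-34390030 (plus strand) carried H3K27ac.
Sox6: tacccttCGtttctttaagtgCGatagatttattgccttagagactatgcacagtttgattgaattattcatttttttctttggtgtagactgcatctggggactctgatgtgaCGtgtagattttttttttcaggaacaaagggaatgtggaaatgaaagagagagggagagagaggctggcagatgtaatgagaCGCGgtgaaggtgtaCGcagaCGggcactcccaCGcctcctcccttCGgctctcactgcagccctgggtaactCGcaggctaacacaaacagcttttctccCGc
Acan: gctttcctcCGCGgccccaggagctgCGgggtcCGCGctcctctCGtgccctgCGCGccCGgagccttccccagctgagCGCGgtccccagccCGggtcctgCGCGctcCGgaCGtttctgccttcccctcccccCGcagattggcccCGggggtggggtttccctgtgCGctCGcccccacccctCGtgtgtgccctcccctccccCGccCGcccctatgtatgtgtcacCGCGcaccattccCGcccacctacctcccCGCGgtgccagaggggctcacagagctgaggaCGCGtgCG
Matn1: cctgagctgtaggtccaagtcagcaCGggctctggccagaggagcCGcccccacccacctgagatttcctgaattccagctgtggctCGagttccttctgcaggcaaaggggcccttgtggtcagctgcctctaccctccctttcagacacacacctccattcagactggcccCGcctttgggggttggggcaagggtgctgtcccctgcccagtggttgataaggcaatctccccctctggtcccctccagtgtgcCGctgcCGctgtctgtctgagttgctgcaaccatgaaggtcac
Col10a1: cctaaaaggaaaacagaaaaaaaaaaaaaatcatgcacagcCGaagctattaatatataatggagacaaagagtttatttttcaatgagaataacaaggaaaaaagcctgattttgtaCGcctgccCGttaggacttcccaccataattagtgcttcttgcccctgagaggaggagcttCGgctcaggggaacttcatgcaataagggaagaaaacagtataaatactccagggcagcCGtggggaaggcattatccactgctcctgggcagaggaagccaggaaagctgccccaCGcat

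The Acan promoter was the richest in CpG among them, with 31 CpG and a GC content of 74.0%. Over 32851 promoters of the same length, the median was 7 CpG and 52.7% GC, and 89.4% had fewer CpG than Acan. Sox6 had 11 CpG in this window, and Matn1 and Col10a1 had 6 each. The core letters bound by SOX proteins (ACAAAG or ACAATG, on either strand) were present in the Sox6 and Col10a1 windows and absent from those of Acan and Matn1, against 28.6% of all promoters with them. TATAAA, searched on the gene strand, was in the Col10a1 window and in 8.32% of all promoters. A match describes the letters and does not show binding.

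Levels per length at the start sites were compared in the young samples, as scaled RPKM (reads per kilobase of region, relative to library size). For H3K27ac, the Sox6 region was the densest, at 1.73 ± 0.355 RPKM (SD, n = 3), and 92.2% of the 8169 H3K27ac regions over a protein-coding TSS were below it. Hapln1 (1.36), Col10a1 (1.32), Acan (1.18), Col2a1 (1.04), Comp (1.04) and Scx (1.0) followed, and Sox9 was last with 0.877 ± 0.101 RPKM. Each neighbour in this order overlapped the next in its range over samples. The median over all such regions was 1.16 RPKM. For H3K27me3, Matn1 stood apart, at 1.55 ± 0.113 RPKM, above Sox6 (0.842), Acan (0.832) and Sox5 (0.781), whose neighbouring ranges overlapped. The median of the 4717 H3K27me3 regions over a TSS was 1.07 RPKM. The Sox6 region of each mark also covers the start of 1110004F10Rik, and the Scx region those of Bop1, Dgat1 and Hsf1. Levels there are not particular to Sox6 or Scx.

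**Figure D1:**
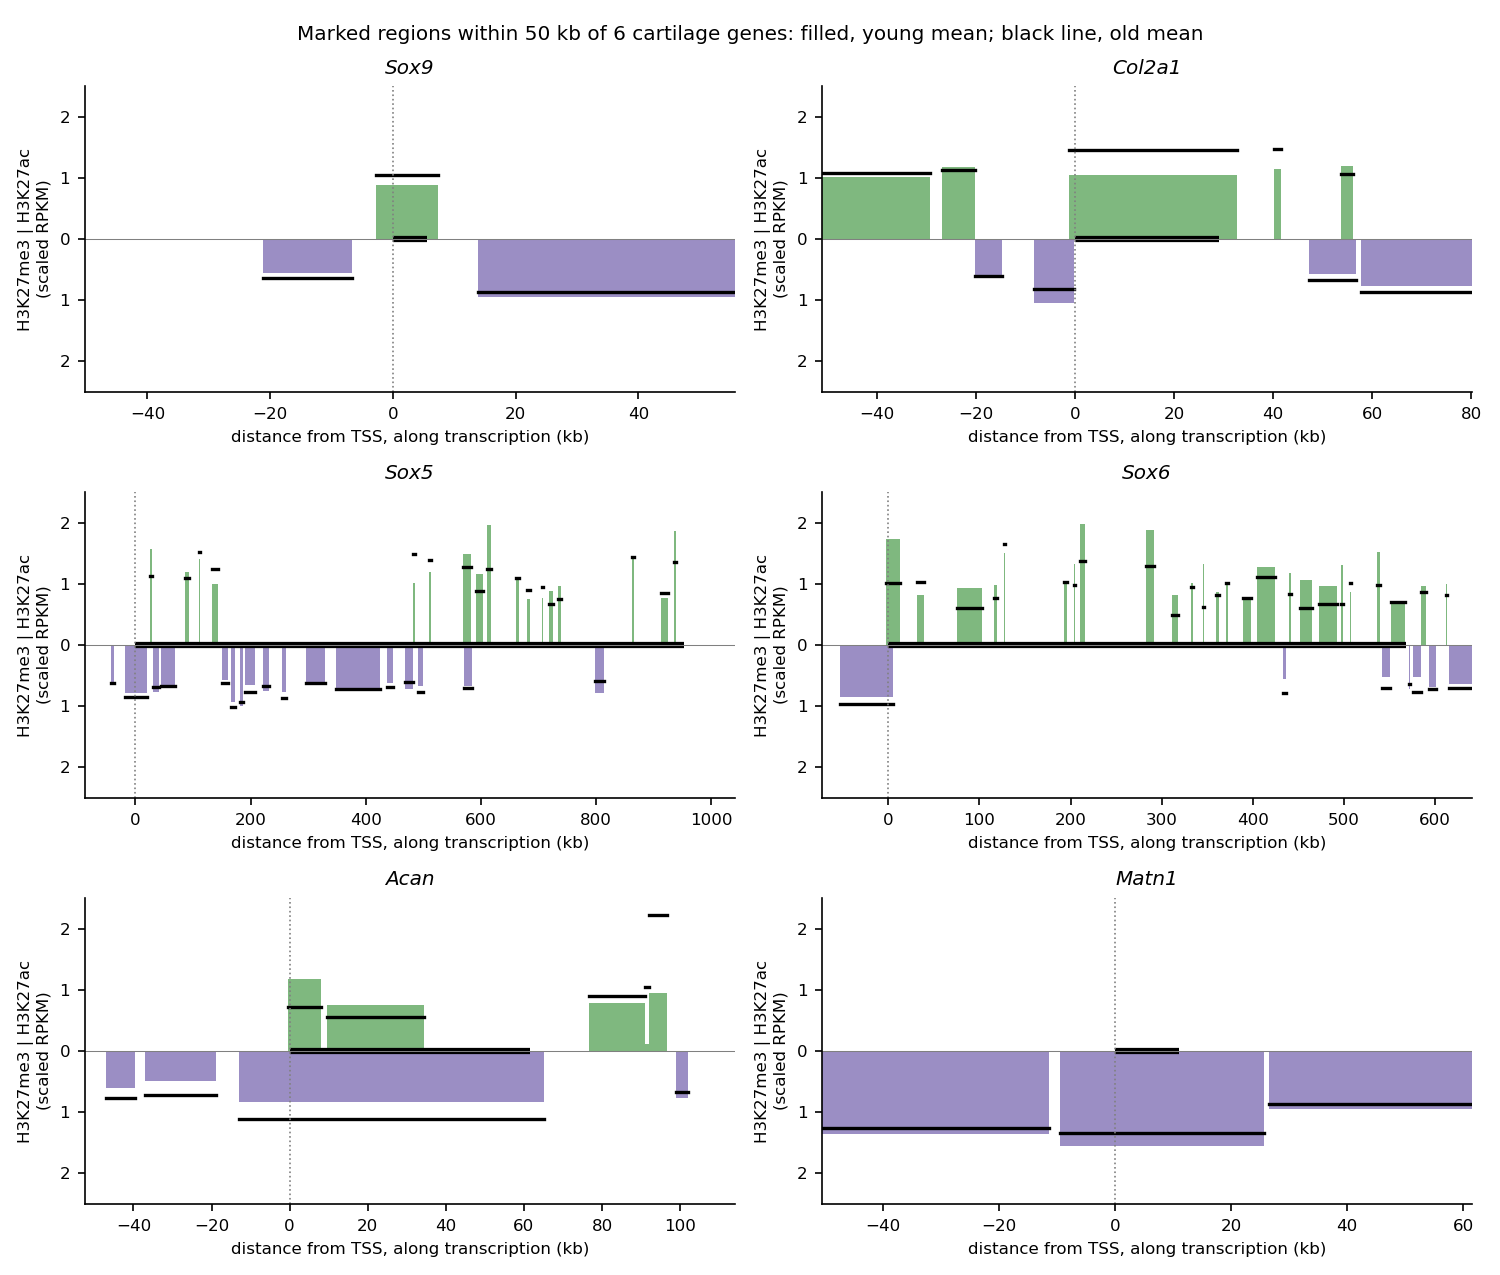
Each panel plots the regions within 50 kb of 1 gene against distance from its TSS in kb, in the direction of transcription, with H3K27ac upward and H3K27me3 downward in scaled RPKM; filled bars are the mean of 3 young samples, black lines the mean of 3 old samples and the thick line the gene body. Sox9 shows H3K27ac over the gene between H3K27me3 regions, Acan lies within 1 H3K27me3 region, and Matn1 has H3K27me3 alone; regions that run past the window are cut near its edge.

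For the comparison of ages, a log2 fold change is old over young on log2(scaled signal + 0.5), tested with limma over all regions of a mark. The scaled signal is a library-size-scaled read number of the region, not divided by its length. Of the 64 H3K27ac regions at these genes, 1 passed an adjusted p-value threshold of 0.05 and is termed called, against 0.0822% of all regions of the table. Of the 43 H3K27me3 regions, 0 were called by limma, edgeR or DESeq2, against 0.488% of all regions by limma. Over all 28047 regions edgeR called 394 and DESeq2 87. DESeq2 gave no adjusted p-value for some of them, among them those of Hapln1, and so could not call these. An unadjusted limma p-value under 0.05 was found for 6 of the 43 (14.0%), against 13.9% of all regions. The same count for H3K27ac was 20 of 64 regions (31.2%), against 9.6% of all regions.

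Non-overlap of all old with all young samples was counted for each region. For H3K27ac, 12 of 64 regions were lower in every old sample (18.8%) against 7.42% of all regions, and 8 were higher in every old sample (12.5%) against 7.09%. Regions of the 4 transcription factors gave 9 of the 12, and 7 of those were at Sox6. Windows of the matrix genes gave 6 of the 8 higher ones, but 5 of these lay outside the gene itself, and the region over Col2a1 was the exception. Among the 48 H3K27ac regions that overlapped a gene body, 3 were higher in every old sample (6.25%) and 11 lower (22.9%). For H3K27me3, 3 of 43 regions were lower in every old sample (6.98%) against 10.6% of all regions, and 6 were higher (14.0%) against 8.56%. The median log2 fold change was -0.12 for H3K27ac, with 38 of 64 regions lower in old, and 0.06 for H3K27me3, with 19 of 43 lower. Neither sign held in every setting. The H3K27ac median was 0.031 when each gene counted once by its summed signal, against 0.03 over all protein-coding genes. On the signal as deposited the H3K27me3 median was -0.062, against -0.13 over all regions, so it lay above the median of all regions, as after scaling. Over all regions, 50.4% of H3K27ac and 51.4% of H3K27me3 regions were lower in old. These shares follow from the scaling, which puts the median of all regions near 0. They cannot show whether most regions changed together with age. Sox6 holds 25 of the 64 H3K27ac regions, and regions of 1 gene are not independent.

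**Figure D2:**
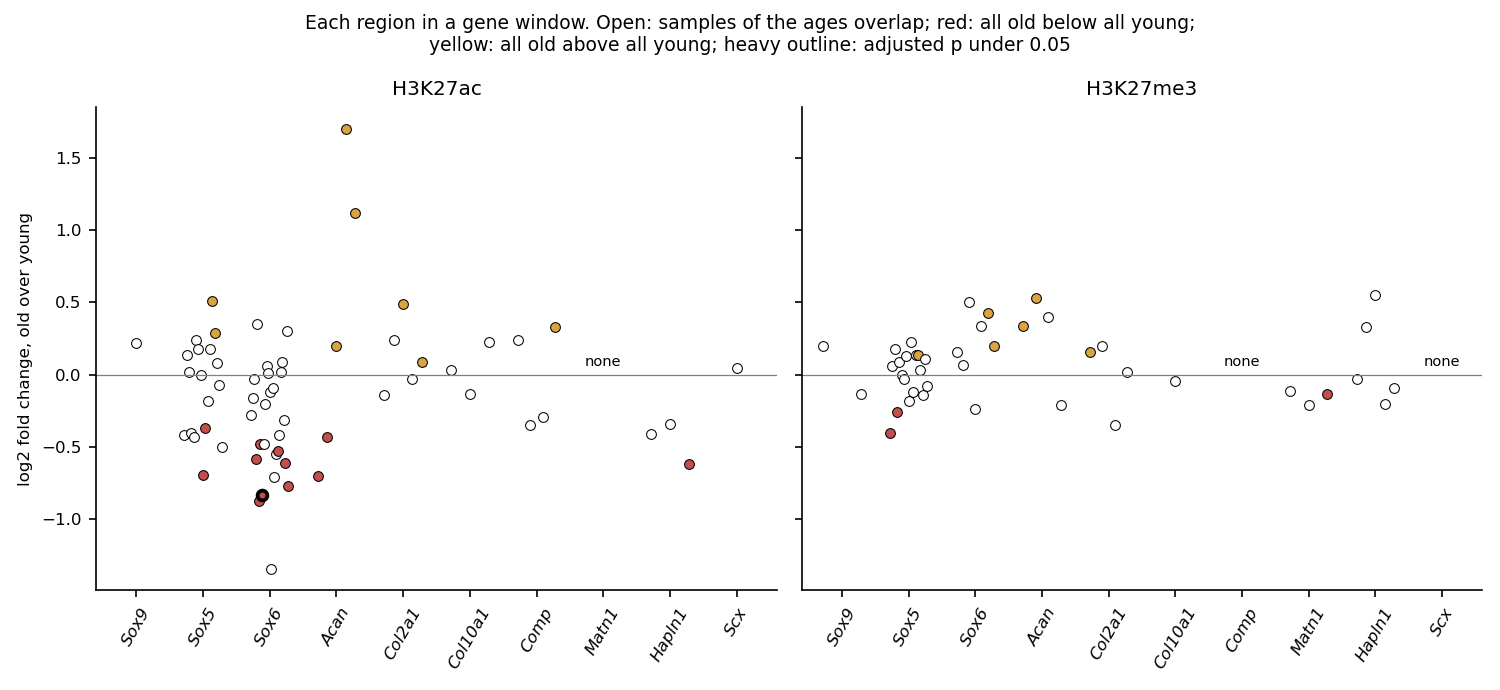
Log2 fold change, old over young, of every H3K27ac (left) and H3K27me3 (right) region, by gene; open points have overlapping samples, red points lie lower and yellow points higher in all 3 old samples, and a heavy outline marks an adjusted limma p-value under 0.05. At Sox6, 19 of 25 H3K27ac points lie below 0, and the 1 called point is at -0.83.

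Sox9 (chr11:112782224-112787760, plus strand), the master regulator of the chondrocyte lineage, lay entirely within an H3K27ac region of 10.0 kb at chr11:112779501-112789500. Its scaled signal was 19.6, 15.6 and 17.4 in young and 19.5, 16.5 and 26.5 in old samples. The ages overlapped, with old replicate 3 the highest, and their log2 fold change of 0.22 ± 0.20 (SE) did not pass (limma adjusted p = 0.774). H3K27me3 flanked the gene on both sides without reaching it. The upstream region, ending 6.72 kb before the TSS, had 15.4, 15.1 and 17.3 in young and 19.6, 16.5 and 19.0 in old samples, with a log2 fold change of 0.20 ± 0.16 (limma adjusted p = 0.614). The downstream region, of 49.0 kb, began 13.8 kb after the TSS and had a log2 fold change of -0.13 ± 0.10 (limma adjusted p = 0.613). No difference between ages was detectable at Sox9 at this depth.

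Sox5 (chr6:143828425-144781977, minus strand) had opposite distributions of the marks along its 954 kb. From its TSS to its midpoint, H3K27me3 covered 50.5% and H3K27ac 4.7%, while from the midpoint to its end H3K27me3 covered 9.4% and H3K27ac 17.8%. The TSS lay in an H3K27me3 region of 37.5 kb at chr6:144762001-144799500, with a scaled signal of 55.9, 61.0 and 58.8 in young and 57.8, 68.2 and 63.4 in old samples. The ages overlapped there, with a log2 fold change of 0.11 ± 0.11 (limma adjusted p = 0.712), which was -0.02 on the signal as deposited. On that signal the median of all H3K27me3 regions was -0.13. Around internal starts some 570 kb into the gene, an H3K27ac region and an H3K27me3 region shared 12 kb, and their log2 fold changes were -0.18 ± 0.25 and 0.06 ± 0.20.

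An intronic Sox5 region of H3K27ac, at chr6:144164501-144171000 and 611 kb downstream of the TSS, was lower in every old sample. It had 25.2, 27.7 and 23.7 in young and 22.3, 11.0 and 15.3 in old samples. The log2 fold change was -0.69 ± 0.21, and the limma adjusted p-value of 0.200 did not pass the threshold. Of the 17 H3K27ac regions of Sox5, 9 were lower in old, and 2 lay lower and 2 higher in all old samples. Among its 17 H3K27me3 regions, the one with the smallest p-value of those with separate ages (chr6:143967501-143984500, intronic) had 23.9, 23.1 and 32.2 in young and 17.7, 21.6 and 20.0 in old samples, a log2 fold change of -0.40 ± 0.16 (limma adjusted p = 0.246). Summed over the window, Sox5 signal was 251 ± 27.4 in young and 231 ± 23.7 in old for H3K27ac, and 438 ± 3.09 against 439 ± 15.2 for H3K27me3.

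Sox6 (chr7:115470872-116038796, minus strand) had 25 H3K27ac and 7 H3K27me3 regions, of which 7 and 2 had separate ages. The region called lay 451 kb downstream of the TSS, over coding and intron sequence at chr7:115574001-115587500. Its H3K27ac signal was 29.4, 30.0 and 27.6 in young and 16.7, 14.9 and 16.8 in old samples. Every old sample was below every young one, the spread within each age was small, and the signal fell by 0.83 on the log2 scale (SE 0.18; limma adjusted p = 0.0494). The adjusted p-value was 0.732 in DESeq2, 0.406 in limma without variance trend and robust moderation, and 0.0604 to 0.392 when any 1 of the 6 libraries was left out. In edgeR it was 0.0193.

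At the Sox6 TSS, the H3K27ac region chr7:116026001-116041000 also covers the start of 1110004F10Rik, and reads of the starts cannot be told apart. It had 47.0, 64.0 and 44.4 in young and 40.3, 23.6 and 27.5 in old samples. The old samples lay below the young ones, with old replicate 1 nearest to them. The log2 fold change was -0.77 ± 0.17, at a limma adjusted p-value of 0.0555, and the adjusted p-value was 0.0204 in edgeR and 0.732 in DESeq2. The H3K27me3 region over the same TSS, chr7:116034001-116091500, shares 7.0 kb with it and also covers the starts of 1110004F10Rik and Gm4353. It had 90.3, 95.0 and 105 in young and 110, 114 and 110 in old samples. All old samples were higher, by 0.20 ± 0.09 on the log2 scale, and the limma adjusted p-value of 0.342 did not pass.

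A further H3K27ac region of Sox6, over UTR and intron sequence at chr7:115936001-115963000 and 75.8 kb downstream of the TSS, had 51.3, 56.0 and 43.4 in young and 33.5, 30.7 and 33.6 in old samples. Its ages did not overlap, and the log2 difference was -0.61 ± 0.14, at an adjusted p of 0.0688 in limma, 0.0283 in edgeR and 0.752 in DESeq2. Over the gene, 19 of 25 H3K27ac regions were lower in old, and 0 were higher in all old samples. Regions near the TSS were not all alike, since chr7:115999001-116007500, 31.3 kb into the gene, had a log2 fold change of 0.30 ± 0.22 with overlapping ages.

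**Figure D3:**
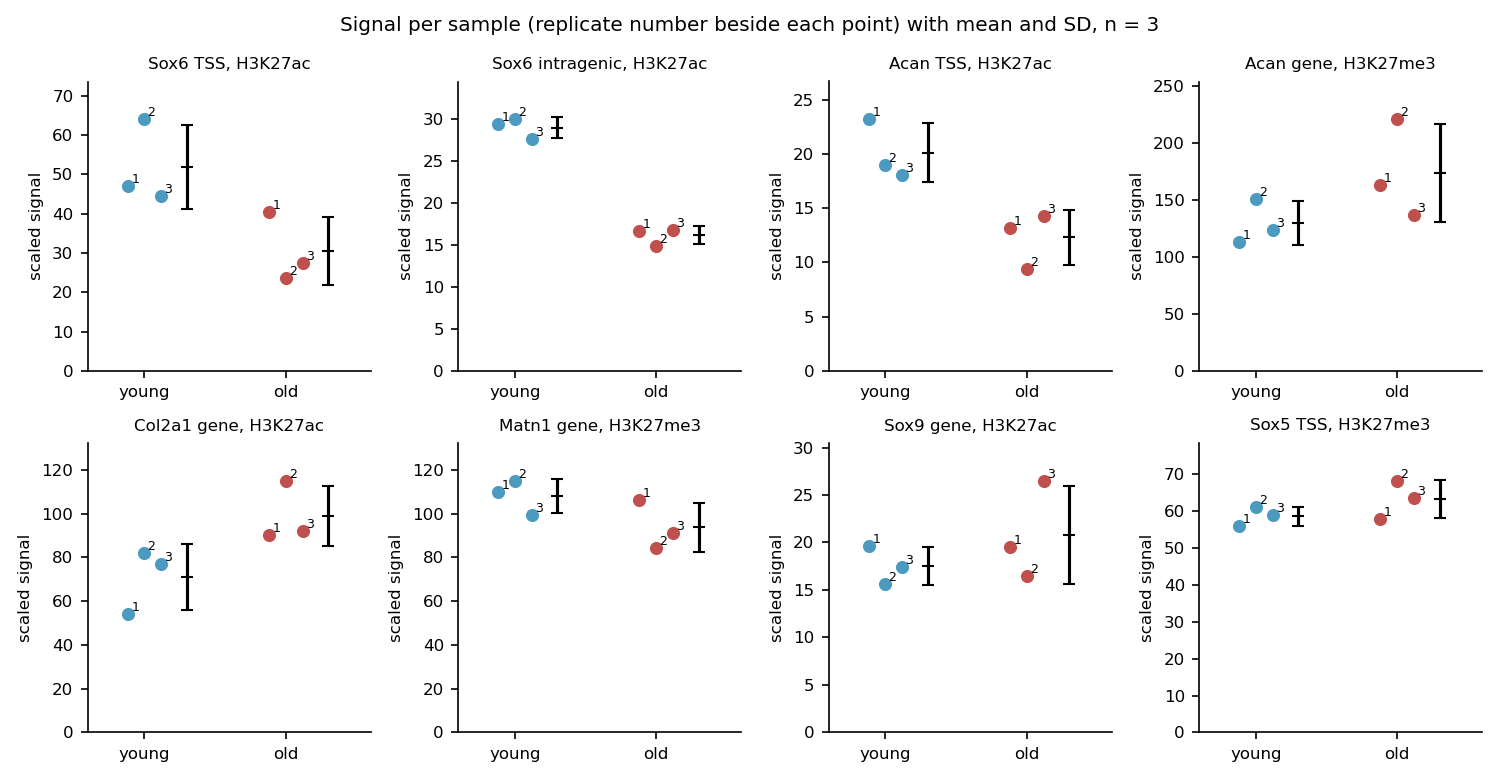
Scaled signal of each sample (replicate number beside the point) in 8 regions, for 3 young (blue) and 3 old (red) samples, with the mean and SD in black. The Sox6 region 451 kb into the gene has 27.6 to 30.0 in young and 14.9 to 16.8 in old samples, whereas the Sox9 and Sox5 regions overlap between ages.

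Scx (chr15:76457452-76459458, plus strand), scleraxis, which marks tendon progenitors, lay within an H3K27ac region of 63.5 kb that also covered the starts of Bop1, Dgat1 and Hsf1, so that its signal is not particular to Scx. The scaled signal was 131, 136 and 116 in young and 128, 121 and 148 in old samples. The ages overlapped, with a log2 fold change of 0.05 ± 0.09 (limma adjusted p = 0.903). It was -0.07 on the signal as deposited, where the median of all H3K27ac regions was -0.12. No H3K27me3 region lay in its window.

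Acan (chr7:79053483-79115099, plus strand), which encodes aggrecan, the large proteoglycan of cartilage, was covered over its whole length by an H3K27me3 region of 78.0 kb (chr7:79040501-79118500). Within it, 2 H3K27ac regions overlaid 53.6% of the gene body. The TSS region of H3K27ac (chr7:79053001-79061500) had 23.2, 19.0 and 18.1 in young and 13.2, 9.44 and 14.3 in old samples. All old samples were lower, with a log2 fold change of -0.70 ± 0.21 (limma adjusted p = 0.216). The second, over exons and introns from 9.52 kb, had a log2 fold change of -0.43 ± 0.15 (limma adjusted p = 0.307), also with separate ages. Their sum was 57.8 ± 4.28 in young and 40.2 ± 0.807 in old (SD, n = 3; two-sided exact permutation p = 0.10, the smallest that 3 against 3 samples can give).

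H3K27me3 over Acan had 113, 151 and 124 in young and 163, 221 and 137 in old samples. Old replicate 3 lay below young replicate 2, so the ages overlapped, with a log2 fold change of 0.40 ± 0.15 (limma adjusted p = 0.222). An H3K27me3 region 19.0 kb upstream (chr7:79016501-79034500) had 16.2, 18.3 and 18.3 in young and 25.3, 30.1 and 22.2 in old samples. All old samples were higher there, by 0.53 ± 0.15 on the log2 scale (limma adjusted p = 0.108). Farther upstream, a region (chr7:79006501-79014000) had 9.68, 10.1 and 7.32 in young and 13.3, 10.8 and 10.5 in old samples, a difference of 0.34 ± 0.20 (limma adjusted p = 0.465).

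In the same window, but outside Acan, an H3K27ac region over the TSS of Mfge8 (chr7:79145501-79150000, 92.0 kb downstream of the Acan TSS) had 8.82, 6.92 and 9.87 in young and 13.2, 28.3 and 18.3 in old samples. All old samples were higher, by 1.12 ± 0.25 on the log2 scale (adjusted p = 0.0555 in limma, 0.0193 in edgeR and 0.642 in DESeq2). Outside Acan, the window also held a region over the TSS of Hapln3 and a short one, with few reads, adjoining the Mfge8 region. Both were higher in all old samples. With every region of the window included, the H3K27ac sum was 89.1 ± 3.86 in young and 88.3 ± 7.47 in old. The value for Acan thus depended on the window: -0.01 with 50 kb on each side and -0.52 in the gene body alone, on the log2 scale.

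Col2a1 (chr15:97975602-98004695, minus strand), which encodes type II collagen, the main fibrillar collagen of cartilage, lay entirely within an H3K27ac region of 34.0 kb (chr15:97972001-98006000). It had 53.9, 81.9 and 77.0 in young and 90.1, 115 and 92.2 in old samples. All old samples were higher, with young replicate 1 the lowest, and the log2 fold change was 0.49 ± 0.13. The limma adjusted p-value was 0.138, and edgeR gave 0.0227 and DESeq2 0.834. H3K27me3 began 0.31 kb upstream of the TSS (chr15:98005001-98013000) and had 16.4, 18.9 and 14.6 in young and 16.6, 11.9 and 10.8 in old samples, overlapping between ages (log2 fold change -0.35 ± 0.19; limma adjusted p = 0.412). The H3K27ac sum of the window was 217 ± 21.9 in young and 254 ± 14.0 in old (exact permutation p = 0.10). A region of 60.5 kb over the starts of Pfkm and Senp1, outside Col2a1, gave 122 of the young and 130 of the old sum.

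Col10a1 (chr10:34389981-34397085, plus strand) encodes type X collagen of hypertrophic chondrocytes. An H3K27ac region of 3.5 kb lay over its TSS (chr10:34388501-34392000) and had 11.1, 8.66 and 7.89 in young and 9.57, 7.86 and 7.64 in old samples. The ages overlapped, with a log2 fold change of -0.13 ± 0.27 (limma adjusted p = 0.923). The single H3K27me3 region of the window lay 30.5 kb downstream of the TSS, with a log2 fold change of -0.04 ± 0.15.

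Comp (chr8:70373558-70382066, plus strand), cartilage oligomeric matrix protein, which binds collagen fibrils, lay within an H3K27ac region of 30.5 kb and had no H3K27me3 region. The signal was 61.7, 66.4 and 61.5 in young and 61.8, 40.9 and 54.0 in old samples. Old replicate 1 was within the young range, and the log2 fold change was -0.29 ± 0.13 (limma adjusted p = 0.463).

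Matn1 (chr4:130944385-130955475, plus strand), matrilin 1 of cartilage, had 0 H3K27ac regions in its window. The whole gene lay in an H3K27me3 region of 35.0 kb (chr4:130935001-130970000), which had 110, 115 and 99.4 in young and 106, 84.2 and 91.0 in old samples. The ages overlapped in it, with a log2 fold change of -0.21 ± 0.10 (limma adjusted p = 0.370). Summed over the 3 regions of the window, H3K27me3 was 491, 481 and 467 in young and 450, 422 and 430 in old samples. All old samples were lower, by -0.14 on the log2 scale (exact permutation p = 0.10). A region of 122.5 kb outside Matn1 (chr4:130971001-131093500), which runs past the window, gave 232 of the young and 212 of the old sum. It alone of the 3 had separate ages. The window extends over the start of Laptm5.

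Hapln1 (chr13:89539796-89611652, plus strand) encodes link protein, which fixes aggrecan to hyaluronan. Its TSS region of H3K27ac had 18.6, 11.5 and 10.5 in young and 12.4, 8.65 and 10.2 in old samples, overlapping, with a log2 fold change of -0.34 ± 0.25 (limma adjusted p = 0.710). All 3 H3K27ac regions were lower in old, of which the one 96.2 kb downstream of the TSS had separate ages (-0.62 ± 0.30; limma adjusted p = 0.505). The nearest H3K27me3 region, in an intron 12.7 kb after the TSS, had 7.31, 9.46 and 7.85 in young and 9.17, 10.8 and 11.4 in old samples, overlapping, with a log2 fold change of 0.33 ± 0.20 (limma adjusted p = 0.481).

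**Figure D4:**
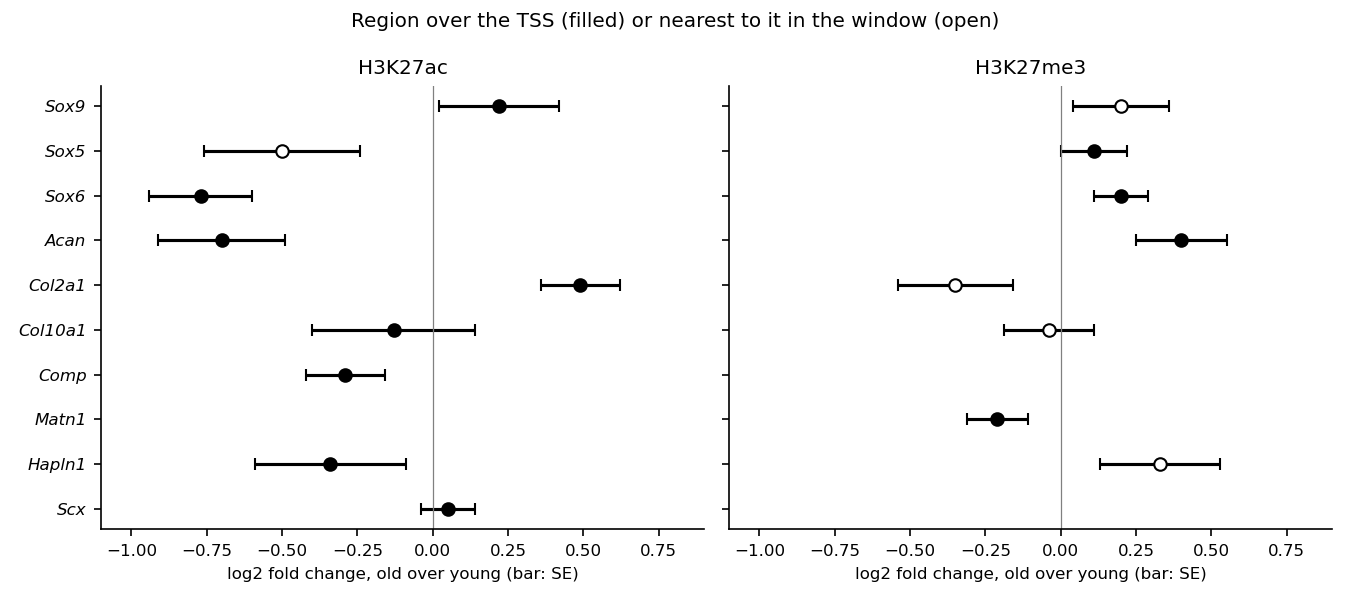
Log2 fold change, old over young, with its SE, of the region over each TSS (filled) or nearest to it within the window (open), for H3K27ac (left) and H3K27me3 (right). H3K27ac at Sox6 and Acan lies at -0.77 and -0.70 and at Col2a1 at 0.49; a gene with no point had no region of that mark.

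Summed signal over each window was compared between ages with the exact permutation test. For H3K27ac, 1 of the 9 genes with a region was lower in all old samples, Sox6, at 414 ± 40.3 in young and 312 ± 38.2 in old (SD, n = 3; exact permutation p = 0.10), against 5.0% of 17248 protein-coding genes. The log2 ratio at Sox6 was -0.41, and -0.32 without old replicate 2, the shallowest library, which had the lowest sum. Col2a1 was the 1 gene higher in all old samples, against 11.6%. For H3K27me3, Matn1 was lower in all old samples, 1 of 8 genes, against 13.0% of 17445. The region over Matn1 itself overlapped between ages. Sox6 (179 ± 10.9 against 209 ± 13.5) and Hapln1 (37.3 ± 1.76 against 41.1 ± 1.01) were higher in all old samples, against 6.53%. Their log2 ratios of 0.22 and 0.14 were 0.09 and 0.02 on the signal as deposited, where that of Matn1 was -0.27. On that signal the median fold change of all H3K27me3 regions was -0.13. Of the 5 H3K27me3 regions of Hapln1, 3 were lower in old. Windows of neighbouring genes overlap, so these backgrounds count some regions more than once.

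The balance of the marks was expressed as log2 of the H3K27ac sum over the H3K27me3 sum in the libraries to which the labels give the same age and sample number. The tables were normalized separately, so it is a description with no test, and it was available for 7 genes. In the young samples it ranged from -2.6 ± 0.28 at Sox9, where the H3K27me3 regions lie on the flanks of the gene, to 1.22 ± 0.13 at Col2a1. At Sox6 it was 1.44, 1.17 and 0.99 in young and 0.84, 0.30 and 0.58 in old samples, a difference of -0.63. At Hapln1 it was 0.26, -0.23 and -0.12 in young and -0.26, -0.88 and -0.69 in old, a difference of -0.58. These were the 2 genes of 7 lower in all old samples, against 5.82% of 15661 genes, and 0 were higher in all old samples, against 13.4%. At Acan the ages overlapped over the window (-0.84 against -1.26) and were separate in the gene body (-1.15 ± 0.30 against -2.07 ± 0.37). Hapln1 went the other way, since its gene-body values overlapped between ages (-0.18 ± 0.74 against -0.95 ± 0.42). Sox6 was also separate in the gene body (1.84 ± 0.25 against 1.19 ± 0.24). Sox5, Sox9, Col2a1 and Col10a1 overlapped, with differences of -0.12, 0.30, 0.15 and 0.11. The median difference over all genes was 0.06.

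**Figure D5:**
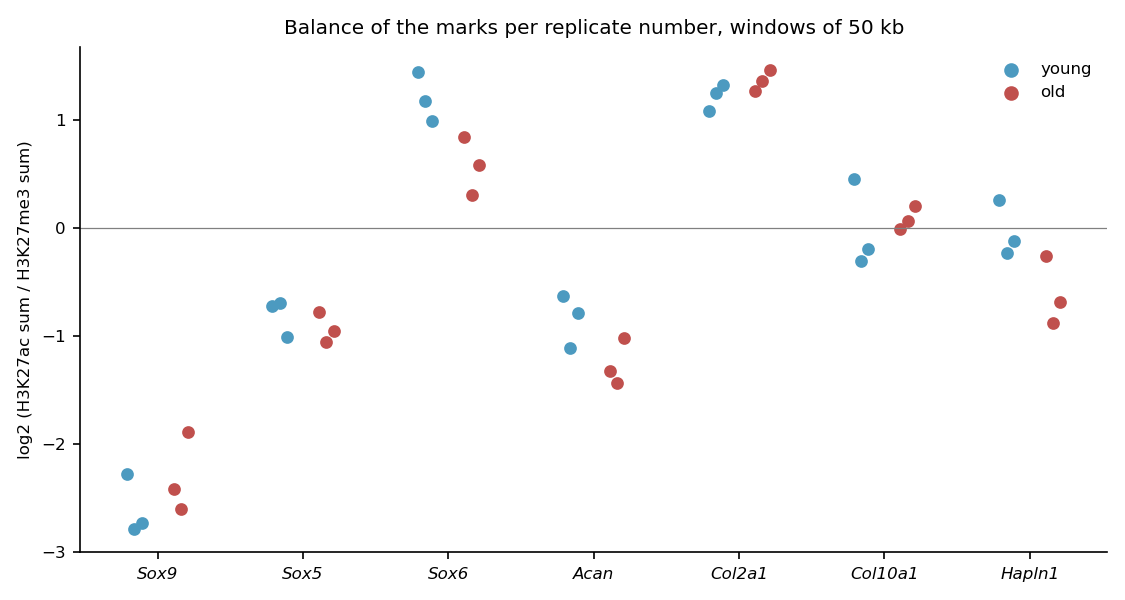
Log2 of the H3K27ac sum over the H3K27me3 sum within 50 kb of the 7 genes with both marks, for each replicate number in young (blue) and old (red) MSCs. At Sox6 and Hapln1 all old points lie below all young points, by 0.63 and 0.58 in the means; Comp, Scx and Matn1 have regions of 1 mark only.

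Other genes of cartilage and tendon formation were taken from a list of 50 (transcription factors, signalling genes, minor collagens, matrilins, link proteins and proteases). H3K27ac covered the TSS of 25 of them and H3K27me3 that of 28. Of their 226 H3K27ac regions, limma called 0, edgeR 2 and DESeq2 0. Over all 31617 regions of the table these tools called 26, 96 and 6. An unadjusted p-value under 0.05 was found for 37 of them (16.4%, against 9.6% of all regions), and 145 (64.2%, against 50.4%) were lower in old, with a median log2 fold change of -0.11. Some of these regions also lie in windows of the cartilage genes above, among them the Mfge8 region that edgeR called. Without shared regions, 221 H3K27ac regions remained, of which 33 (14.9%) had such a p-value and 143 (64.7%) were lower in old. Of their 114 H3K27me3 regions, 2 were called by limma, against 0.488% of all regions. In edgeR 3 and in DESeq2 1 were called, against 394 and 87 of all 28047 regions. Both regions called by limma fell in old, as did 114 of the 137 regions it called in the whole table. Neither was a shared region. Without shared regions, 110 H3K27me3 regions remained. The region over the TSS of Pax1, a factor of the sclerotome from which vertebral cartilage forms, had 119, 125 and 121 in young and 100, 81.3 and 87.8 in old samples (log2 fold change -0.44 ± 0.10; limma adjusted p = 0.0455). A region nearest to Barx2, a homeobox factor of limb cartilage, had 112, 123 and 120 in young and 93.6, 71.1 and 85.9 in old samples (-0.50 ± 0.10; limma adjusted p = 0.0370).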

How the data were processed

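CUT&RUN libraries of H3K27ac and H3K27me3 were grouped by age and antibody from the sample labels. The submitters' processing notes name Bowtie2, Picard and mm10/GRCm38; the region caller is not given in the sources used here. The authors deposited 1 table of signal per mark, with regions called in 500-base steps. Of the deposited values, 100% were whole multiples (tolerance 0.05) of 1 read for a constant 0.5 kb, so whole reads were recovered; the signal was not divided by region length. The planned log-scale test was kept.

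Signal was scaled by the median of ratios (RLE), and log2(signal + 0.5) was fitted over all regions of a mark in limma 3.58.1 (R 4.3.3; variance trend, robust, two-sided, Benjamini-Hochberg). edgeR 4.0.16 and DESeq2 1.42.0 on the recovered reads were alternatives. The scripts were checked on simulated data. Summed signal used two-sided exact permutation tests. No filter on low values was applied before the tests, though DESeq2 left some H3K27me3 regions without an adjusted p-value, and 0 value columns were unused. Counting error limits regions with few reads.

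All 10 genes were named, with the region over or nearest the TSS, every called region, and up to 3 further regions per mark with the smallest p-value among those with separate ages. The members, lists and tests were chosen with earlier results of these data known. The supplied paper describes other experiments and served for style. Yeast DNA was not analysed here.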

Additional observations from a re-analysis of the deposited data

How the results depend on the processing

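The number of H3K27ac regions called at the cartilage genes was 1 and depended on the setting: 0 with a pseudocount of 0.1, 3 with a pseudocount of 1, 4 on the signal as deposited, 4 after quantile normalization, 3 without the 25% of regions with the lowest signal, 0 in limma without trend and robust moderation, 5 in edgeR, 0 in DESeq2, and 0 to 2 when 1 library was left out. TMM scaling and the other windows kept 1. The cause was not tested. Over the whole table these settings called 0 to 105 H3K27ac regions, against 26. The Sox6 region 451 kb into the gene was called in every setting that called a region at these genes except when old replicate 1 was left out, where the Sox6 TSS region and that of Mfge8 were called instead. For H3K27me3, 0 regions were called at these genes in every setting run, against 10 to 774 over the whole table.

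On the signal as deposited, the median log2 fold change of all regions was -0.12 (H3K27ac) and -0.13 (H3K27me3), and the fold changes should be read relative to those medians. That signal moved the H3K27me3 median of the cartilage regions from 0.06 to -0.062, the H3K27ac region of Scx to -0.07 and the H3K27me3 TSS region of Sox5 to -0.02. Each of these values still lay above the median of all regions of its mark on that signal. Leaving out 1 library gave H3K27me3 medians of 0.004 to 0.11. The H3K27ac median was 0.031 when each gene counted once, against 0.03 over all protein-coding genes. The same omissions moved the H3K27ac region of Scx from -0.03 to 0.12, that of Col10a1 from -0.23 to 0.01, and the H3K27me3 region of Col10a1 from -0.15 to 0.04, so none of these had a fixed direction.

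Replicate numbers are shared between ages. The correlations of the deviations of same-numbered samples were -0.054 to 0.066 for H3K27ac and -0.078 to 0.043 for H3K27me3. These small values showed no pairing by number over all regions, but they cannot settle whether same-numbered samples were processed together. With the replicate block, 5 H3K27ac regions at these genes were called and 81 in the table, against 1 and 26. For H3K27me3 the block called 0 regions at these genes and 309 in the table, against 0 and 137.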
